A study of Mus musculus with 18 samples.

Results

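Genes of DNA replication and of mitosis were followed through the differentiation of mouse embryonic stem (ES) cells into motor neurons. A list of 40 genes was used, 22 for replication and 18 for mitosis, and 39 of them had at least 1 probe set of their own on the array, among 18193 genes. The cyclin gene Ccnb1 was not analysed here. The 39 genes had 84 probe sets among the 45037 tested, with 11 genes on 1 probe set and 28 on several. Where a gene had several, its value was read from the probe set that was brightest on average over the 18 arrays.

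Expression was measured on 18 Affymetrix mouse arrays of the HBG3 line, a mouse ES cell line for which the labels give no further genotype. Day 0 stands for ES cells (3 arrays) and day 2 for embryoid bodies before retinoic acid (RA) was given (4 arrays), and a second day 2 group had received RA for 8 h (2 arrays). Later stages, with 3 arrays each, are labelled as neural precursors (day 3), progenitor motor neurons (day 4) and postmitotic motor neurons (day 7). RA and a hedgehog agonist were added on day 2, so the day 3, day 4 and day 7 cultures had received both. For the arrays with 8 h of RA the labels mention RA alone, and they have no control kept for the same 8 h without it. ES cells were expanded on feeder cells and plated on gelatin for differentiation. All cultures come from 1 line and no sorting step is named, so each array reads the RNA of a whole culture. Fewer cells of a type and less RNA per cell cannot be told apart in such data.

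Before a cell copies its DNA, the proteins Cdc6 and Cdt1 load rings of the Mcm2 to Mcm7 proteins onto the origins of replication, and geminin (Gmnn) blocks Cdt1 so that each origin is used once. Cdc45 and the GINS complex turn the loaded ring into the active helicase, DNA polymerase alpha lays down primers, and the sliding clamp Pcna holds the polymerases that extend them. In mitosis the cyclin B kinase Cdk1, the Polo and Aurora kinases, the kinetochores and the spindle checkpoint drive and check the separation of chromosomes. In the developing spinal cord these proteins are made in dividing progenitors, and neurons leave the cycle for good. Transcription of many replication genes is governed by E2F factors bound near the start site, and that of many mitotic genes by a CHR element (cell cycle genes homology region), often beside CCAAT boxes bound by NF-Y.

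The promoters of these genes are shown because that division between E2F and CHR elements can be read in them. RefSeq promoters (build GRCm38.p6, 250 bases before to 50 bases after the start) were given for 32 of the 39 measured genes. Ccna2, Gins1, Mcm4, Gins2, Tpx2, Gmnn and Aurkb were not among them. The 170 bases before the start follow, on the gene's own strand, 5′ to 3′. They are shown for the pair of E2F-matched genes with the largest falls from day 4 to day 7, read on the brightest probe sets. Mcm5 and Mcm6, from the E2F-matched helicase genes Mcm3, Mcm5, Mcm6 and Mcm7, and the gene with the smallest fall, Rfc3, come after them. Capitals mark matches to TTTCGCGC, TTTGGCGC, TTTCCCGC or TTTGCCGC on either strand.
Cdc6, chr11:98907981-98908150, plus strand: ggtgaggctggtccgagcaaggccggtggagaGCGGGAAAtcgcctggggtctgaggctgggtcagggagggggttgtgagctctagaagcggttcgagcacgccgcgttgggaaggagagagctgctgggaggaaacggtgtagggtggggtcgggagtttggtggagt
Pola1, chrX:93632156-93632325, minus strand: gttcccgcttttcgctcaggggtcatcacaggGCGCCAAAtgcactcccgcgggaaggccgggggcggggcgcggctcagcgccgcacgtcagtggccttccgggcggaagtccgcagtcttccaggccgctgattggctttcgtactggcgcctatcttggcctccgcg
Mcm5, chr8:75109339-75109508, plus strand: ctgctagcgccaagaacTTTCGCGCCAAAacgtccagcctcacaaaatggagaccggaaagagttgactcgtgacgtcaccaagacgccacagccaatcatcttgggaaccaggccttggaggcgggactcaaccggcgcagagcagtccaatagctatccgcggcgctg
Mcm6, chr1:128359706-128359875, minus strand: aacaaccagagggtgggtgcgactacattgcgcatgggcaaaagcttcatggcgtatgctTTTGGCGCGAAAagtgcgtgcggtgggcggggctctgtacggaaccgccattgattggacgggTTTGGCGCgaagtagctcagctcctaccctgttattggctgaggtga
Rfc3, chr5:151651209-151651378, minus strand: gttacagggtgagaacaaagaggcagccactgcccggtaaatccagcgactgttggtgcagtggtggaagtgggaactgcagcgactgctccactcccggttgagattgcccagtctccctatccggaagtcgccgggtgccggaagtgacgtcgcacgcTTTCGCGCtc

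In Mcm5 and in Mcm6 a match on each strand overlaps into 1 run of capitals, and Mcm6 has a further match closer to the start. Another 3 promoters, of mitotic genes with CHR matches, follow for comparison, chosen for a checkpoint target, the mitotic kinase and the topoisomerase. Here capitals mark TTTGAA on either strand or TTCGAA, which reads the same on both strands.
Cdc20, chr4:118437344-118437513, minus strand: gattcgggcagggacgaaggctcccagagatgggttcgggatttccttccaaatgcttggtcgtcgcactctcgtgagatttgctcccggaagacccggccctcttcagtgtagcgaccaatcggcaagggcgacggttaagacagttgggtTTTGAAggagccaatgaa
Cdk1, chr10:69352913-69353082, minus strand: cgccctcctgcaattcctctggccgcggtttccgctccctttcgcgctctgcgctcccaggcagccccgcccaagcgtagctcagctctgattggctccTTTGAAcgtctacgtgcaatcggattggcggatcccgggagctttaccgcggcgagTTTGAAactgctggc
Top2a, chr11:99024190-99024359, minus strand: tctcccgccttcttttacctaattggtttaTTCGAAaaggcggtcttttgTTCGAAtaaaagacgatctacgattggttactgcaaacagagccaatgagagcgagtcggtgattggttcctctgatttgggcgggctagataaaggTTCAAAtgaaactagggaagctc

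Cdk1 also holds an E2F-type match, left in lower case, at positions -131 to -124 counted from the start. Over the 300 bases searched, 9 of 18 replication promoters (50%) held an E2F-type match against 1 of 14 mitotic promoters (7.14%) and 3.81% of the 14452 array genes with a promoter in the table. A CHR-type match was present in 5 of 18 replication promoters (27.8%), in 12 of 14 mitotic promoters (85.7%) and in 17.5% of the array genes. The CCAAT box was present in 72.2% of the replication promoters, 78.6% of the mitotic promoters and 42.0% of the array genes. A CHR-type match together with a CCAAT box was found in 22.2% of the replication promoters, 78.6% of the mitotic promoters and 8.25% of the array genes. Over all 27025 genes of the table the shares were 2.6% for the E2F type, 21.7% for the CHR type and 41.1% for CCAAT. The median GC content was 57.5% for the replication promoters, 57.8% for the mitotic promoters and 58.7% for the array genes. These counts are descriptions of letters in a fixed window, and binding was not measured here.

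**Figure D1:**
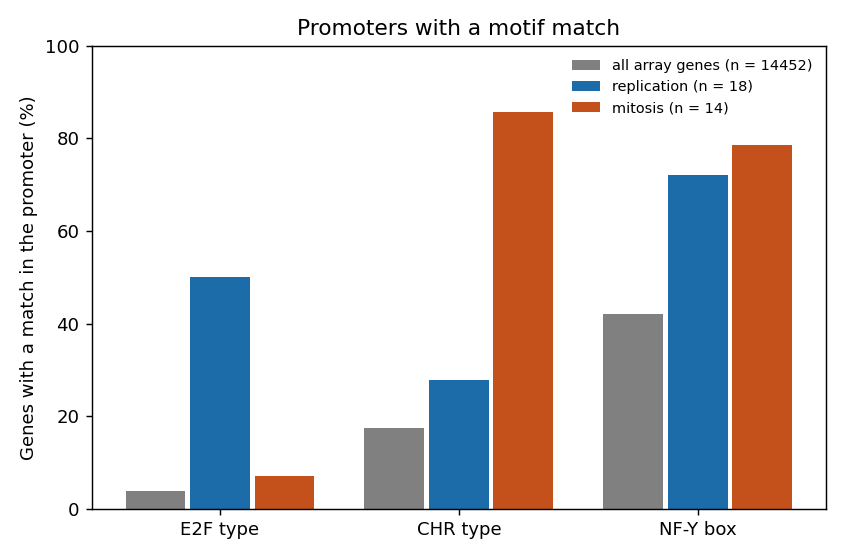
Share of promoters (vertical axis, percent of genes) with at least 1 match to the E2F-type, CHR-type or NF-Y box motif, for the 14452 array genes with a promoter (grey), 18 replication genes (blue) and 14 mitosis genes (orange). The E2F-type bar is tallest for replication genes at 50% and the CHR-type bar for mitosis genes at 85.7%.

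The 9 replication genes with an E2F-type match were Cdc6, Cdt1, Lig1, Mcm3, Mcm5, Mcm6, Mcm7, Pola1 and Rfc3. The 5 with a CHR-type match were Cdc45, Fen1, Mcm2, Mcm7 and Rfc3, so Mcm7 and Rfc3 held both. Of the mitotic genes with a promoter in the table, Birc5 and Nuf2 held no CHR-type match. The median change from day 4 to day 7 (described below) was -2.39 on the log2 scale for the 10 genes with an E2F-type match and -2.27 for the 22 without, and it was -2.33 for the 17 genes with a CHR-type match and -2.20 for the 15 without.

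The values are log2 signals, with the background level set at 4. On each array 55.2% to 56.9% of probe sets lay under it, and arrays of 1 stage correlated at 0.967 to 0.995 with each other over all probe sets. Shares of all genes given below include genes under background. The labelled stages were set against markers. Calls of markers follow the rule given in the next paragraph, which from day 4 to day 7 called 10.9% of all genes higher and 8.17% lower. Over that step all 7 neuron markers were called higher and their summed linear signal went from 4000–5150 to 37600–41900. The same sum was 4270–6020 in ES cells, with Stmn2 at a mean of 12.12, and 712–903 on day 3. A sum at the day 4 level is thus not specific to neurons here. Motor neuron markers were called higher in 4 of 7 genes (sum 1530–2530 at day 4 and 3030–4400 at day 7). The acetylcholine synthesis gene Chat was under background on every day 7 array. Neural progenitor markers were called lower in 2 of 4 genes (sum 7160–9700, then 4740–5860) and motor neuron progenitor markers in 1 of 4 (3170–4130, then 1200–6700). The mean log2 signal went from 11.38 to 9.30 for Sox1 and from 10.45 to 3.92 for Pax6, both called, and from 11.82 to 11.68 for Sox2 and from 8.92 to 10.13 for Nes, neither called, and Olig2, the called motor neuron progenitor gene, went from 11.10 to 9.04. Glial markers were called higher in 3 of 5 genes (sum 240–347, then 1050–1180), with Gfap and Mog under background. The summed feeder fibroblast markers were at 516–3560 on day 0 and at 56.9–95.4 on day 2, with Postn and Lum under background at every stage. Endoderm markers were under background except Ttr, which was at 6.70 on 1 day 2 array and at 6.47 on 1 array with 8 h of RA. The part of these marker changes in the results below was not tested.

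Every measured replication and mitosis gene fell between day 4 and day 7, and none changed past the threshold in any of the 4 steps before. A gene was called when 1 or more of its probe sets passed an adjusted p of 0.01 (limma, Benjamini-Hochberg over 45037 probe sets) with a change of at least 2-fold. From day 4 to day 7, 39 of 39 genes were called lower, 22 of 22 for replication and 17 of 17 for mitosis, against a background of 8.17% of all genes called lower and 10.9% called higher. The median change was -2.27 on the log2 scale (4.81-fold lower), with 0 for the median of all genes, -2.05 for the replication genes and -2.33 for the mitosis genes. On the brightest probe sets the folds ran from 2.4-fold for Rfc3 to 14.8-fold for Cdc6. Their standard errors were 0.0877 to 0.442 on the log2 scale, with adjusted p-values of 4.1e-09 to 0.0031. On all 39 genes every day 7 array lay below every day 4 array, which held for 17% of all genes. No day 7 value of these genes was under the background level of 4.

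**Figure D2:**
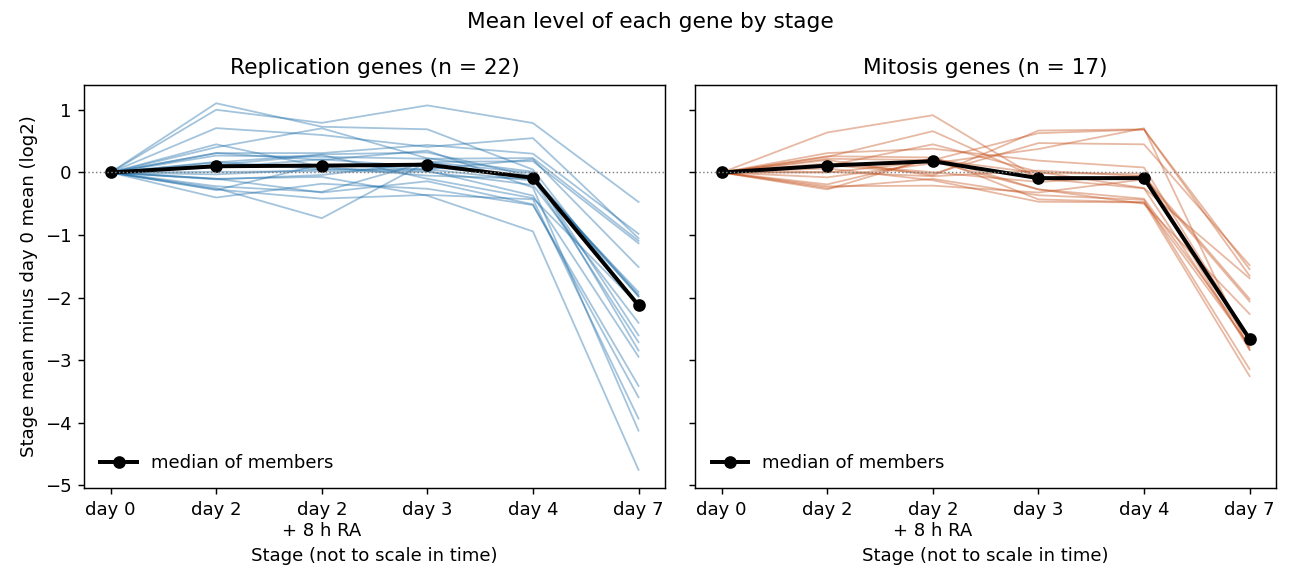
Mean of each gene at each stage minus its day 0 mean (vertical axis, log2) along the 6 stages (horizontal axis, not to scale in time). The 22 replication genes and the 17 mitosis genes are drawn apart, each with its own median in black. Up to day 4 the median over all 39 genes, which is not drawn, stays between -0.09 and 0.15. Single genes run from -0.94 (Mcm10 at day 4) to 1.11 (Gins2 at day 2), and the day 7 mean is the lowest of all 6 stages in 39 of 39 genes.

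The shared estimate of spread matters for this count. With the 6 arrays of the day 4 and day 7 groups fitted alone, 22 of 39 genes were called lower, while the number over all genes went from 1486 to 512. The 21 genes whose brightest probe set then missed the threshold included Mcm2, Mcm10, Gmnn, Rfc3, Cdk1 and Mki67, and their direction was unchanged.

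**Figure D3:**
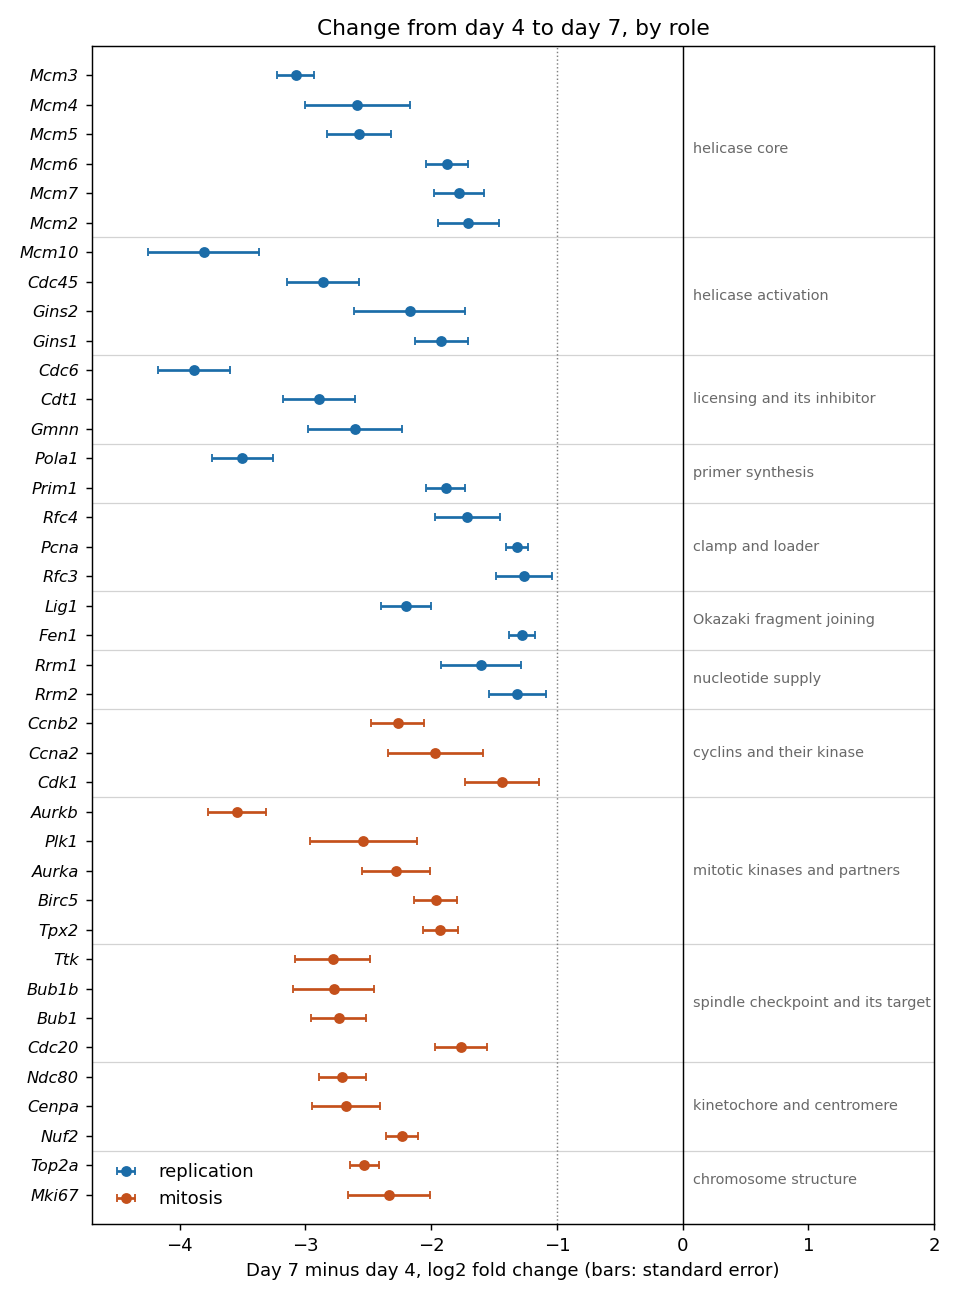
Log2 fold change from day 4 to day 7 (horizontal axis, points with standard errors as bars) for each of the 39 genes, grouped by role. Every point lies left of the dotted line at a 2-fold fall, from Cdc6 at -3.89 to Rfc3 at -1.26.

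The 6 genes of the Mcm2 to Mcm7 ring, the core of the replicative helicase, all fell, with a median change of -2.22. Mcm3 fell the most. It was at 11.08, 11.29 and 11.49 on the day 4 arrays and at 8.03, 8.57 and 8.03 on the day 7 arrays, while all arrays before day 4 lay between 11.48 and 11.94. The day 4 and day 7 arrays were separated by far more than the spread within each day, and the fall was 8.44-fold (-3.08 ± 0.15 log2, SE, adjusted p = 7.5e-09). All 5 Mcm3 probe sets were called lower, at -3.08 to -3.88. Mcm2 fell the least of the ring, from 10.88, 10.71 and 11.70 to 9.54, 9.25 and 9.39, with replicate 3 of day 4 standing above the other two. Its fall was 3.26-fold (-1.70 ± 0.24, adjusted p = 2e-04). Mcm4, Mcm5, Mcm6 and Mcm7 lay between, at -2.59, -2.57, -1.88 and -1.78.

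The helicase activation genes fell by a median of 2.51 on the log2 scale. Mcm10, which binds both the helicase and DNA polymerase alpha, was at 9.36, 9.18 and 10.65 on the day 4 arrays and at 5.56, 5.38 and 6.83 on the day 7 arrays. The spread within both days was the widest of the 39 genes (SD 0.80 and 0.79, n = 3), yet the highest day 7 array stayed below the lowest day 4 array. The fall was 14.0-fold (-3.81 ± 0.44, adjusted p = 3.3e-05). Cdc45, a subunit of the active helicase, changed by -2.86 ± 0.29. Of the GINS genes, Gins2 changed by -2.17 ± 0.44 and Gins1 by -1.92 ± 0.21, and the other two subunits, which are on the wider replication list, by -3.29 ± 0.19 (Gins3) and -1.33 ± 0.12 (Gins4). Gins1 was at 10.70, 10.69 and 11.42 at day 4 and at 9.04, 8.97 and 9.06 at day 7, so its day 7 arrays differed by less than 0.1.

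The licensing genes had the largest median of the replication roles, -2.89. Cdc6, the loader of the Mcm ring, stood at 9.85, 9.75 and 10.50 on day 4 and at 5.94, 5.75 and 6.75 on day 7, and its arrays before day 4 lay between 9.77 and 10.93. Its fall of 14.8-fold (-3.89 ± 0.29, adjusted p = 5.5e-07) was the largest of the 39 on the brightest probe sets. Dimmer probe sets of Rrm2 (-4.14), Cdt1 (-4.06) and Mcm10 (-4.03) fell further. Cdt1, which loads the ring together with Cdc6, fell 7.43-fold (-2.89 ± 0.29). Gmnn, the inhibitor of Cdt1, fell with them, from 11.17, 11.04 and 10.69 to 8.82, 8.74 and 7.51. Here replicate 5 of day 7 was more than 1 log2 unit below the other two arrays, and the fall was 6.09-fold (-2.61 ± 0.38, adjusted p = 2.2e-04).

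Pola1, the catalytic subunit of DNA polymerase alpha, was at 9.07, 9.62 and 9.30 on the day 4 arrays and at 5.32, 6.09 and 6.08 on the day 7 arrays. The days did not overlap and the fall was 11.3-fold (-3.50 ± 0.24, adjusted p = 2.8e-07). Prim1, the primase subunit of the same complex, fell 3.69-fold (-1.88 ± 0.16).

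On the brightest probe sets the clamp and its loader had the smallest median fall of the replication roles, -1.32 on the log2 scale. Brighter genes tended to fall less, as given below. Rfc4, a subunit of the loader, went from 11.82, 11.37 and 12.32 to 10.05, 9.82 and 10.50, a fall of 3.28-fold (-1.71 ± 0.26, adjusted p = 3.3e-04). Pcna, the clamp, changed by -1.32 ± 0.09, with the smallest standard error of the 39. Rfc3, another loader subunit, was at 9.0, 8.93 and 9.23 on day 4 and at 7.85, 8.22 and 7.31 on day 7. The lowest day 4 array was still above the highest day 7 array. The fall of 2.4-fold (-1.26 ± 0.23, adjusted p = 0.0012) was the smallest of the 39 on the brightest probe sets.

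For the joining of Okazaki fragments, the pieces of the lagging strand, both genes fell. Lig1, the ligase, went from 10.93, 10.60 and 11.20 to 8.53, 8.60 and 9.0, a 4.6-fold fall (-2.20 ± 0.20, adjusted p = 3.7e-06). Fen1, the flap nuclease that trims the fragments, changed by -1.28 ± 0.10. Both subunits of ribonucleotide reductase, which makes deoxynucleotides, also fell. Rrm1 was at 10.53, 10.31 and 10.68 on day 4 and at 9.10, 9.32 and 8.28 on day 7 (-1.60 ± 0.32, adjusted p = 0.0027). Rrm2 changed by -1.31 ± 0.23 on its brightest probe set.

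Among the mitotic genes the cyclins and their kinase fell by a median of 1.97 on the log2 scale. Ccnb2, a B-type cyclin, went from 10.04, 10.19 and 10.77 to 8.13, 7.99 and 8.07. The day 7 arrays lay close together (SD 0.07, n = 3), and the fall was 4.81-fold (-2.27 ± 0.21, adjusted p = 4.2e-06). Ccna2, the A-type cyclin, changed by -1.97 ± 0.38. Cdk1, the kinase that these cyclins activate, fell the least of the mitotic genes, from 11.40, 11.36 and 12.25 to 10.01, 10.18 and 10.51. Its fall was 2.71-fold (-1.44 ± 0.29, adjusted p = 0.0031), the highest adjusted p of the 39, and the day 4 array of replicate 3 was again the highest. Cdk1 missed the threshold without day 4 replicate 3 (-1.15, adjusted p = 0.013), without day 7 replicate 3 (adjusted p = 0.016) and without day 7 replicate 4 (adjusted p = 0.013).

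The mitotic kinases and their partners had a median change of -2.28. Aurkb, the kinase of the chromosomal passenger complex, was at 10.02, 10.32 and 10.54 on day 4 and at 6.42, 6.68 and 7.15 on day 7. It fell 11.7-fold (-3.54 ± 0.23, adjusted p = 1.5e-07), the largest fall of a mitotic gene, whereas Birc5 (survivin), a partner in that complex, fell 3.90-fold (-1.96 ± 0.17). Aurka, the spindle pole kinase, changed by -2.28 ± 0.27 and Plk1, the Polo kinase, by -2.54 ± 0.42. Tpx2, which activates Aurka on the spindle, fell the least of this group, from 12.03, 12.10 and 11.79 to 10.03, 10.10 and 10.01 (3.81-fold, -1.93 ± 0.14, adjusted p = 4.4e-07).

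On their brightest probe sets the spindle checkpoint genes Ttk, Bub1b and Bub1 fell by nearly the same amount as each other. The falls were 2.78 ± 0.30, 2.77 ± 0.32 and 2.74 ± 0.22 on the log2 scale. A second probe set of Bub1 changed by only -1.005 and was called, and that of Ttk by -1.81 and was not. Ttk was at 10.01, 10.06 and 9.49 on day 4 and at 7.11, 7.47 and 6.64 on day 7 (adjusted p = 1.8e-05). Cdc20, the activator of the anaphase-promoting complex that the checkpoint holds back, fell less, from 11.15, 10.89 and 11.71 to 9.19, 9.70 and 9.57 (3.38-fold, -1.76 ± 0.21, adjusted p = 3.9e-05). The days did not overlap for either gene.

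At the kinetochore, Ndc80 and Nuf2 form the microtubule-binding arm of 1 complex. Ndc80 was at 8.15, 8.12 and 8.31 on day 4 and at 5.49 on all 3 day 7 arrays. The fitted difference was -2.71 ± 0.19 (6.52-fold). The 3 deposited day 7 values were identical, so that no spread was measured there, and they entered the fit as arrays without error, which lowers its standard error. Over the whole array 12131 probe sets had identical values on the day 7 arrays, 38 of them at or above background, and Ndc80 was the only one among the 39 genes. Whether 5.49 is the lowest value this probe set can take was not tested, and if it is, the fold is a lower bound. Nuf2 went from 9.84, 10.07 and 10.18 to 7.80, 7.66 and 7.94 (4.69-fold, -2.23 ± 0.13, adjusted p = 4.7e-08). Cenpa, the histone H3 variant of centromeres, changed by -2.68 ± 0.27. Top2a, the topoisomerase that untangles chromosomes, was at 11.97, 11.94 and 11.96 on day 4 and at 9.31, 9.71 and 9.27 on day 7, and had the smallest adjusted p of the 39 (5.78-fold, -2.53 ± 0.11, adjusted p = 4.1e-09). The proliferation marker Mki67, which coats mitotic chromosomes, changed by -2.33 ± 0.33.

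**Figure D4:**
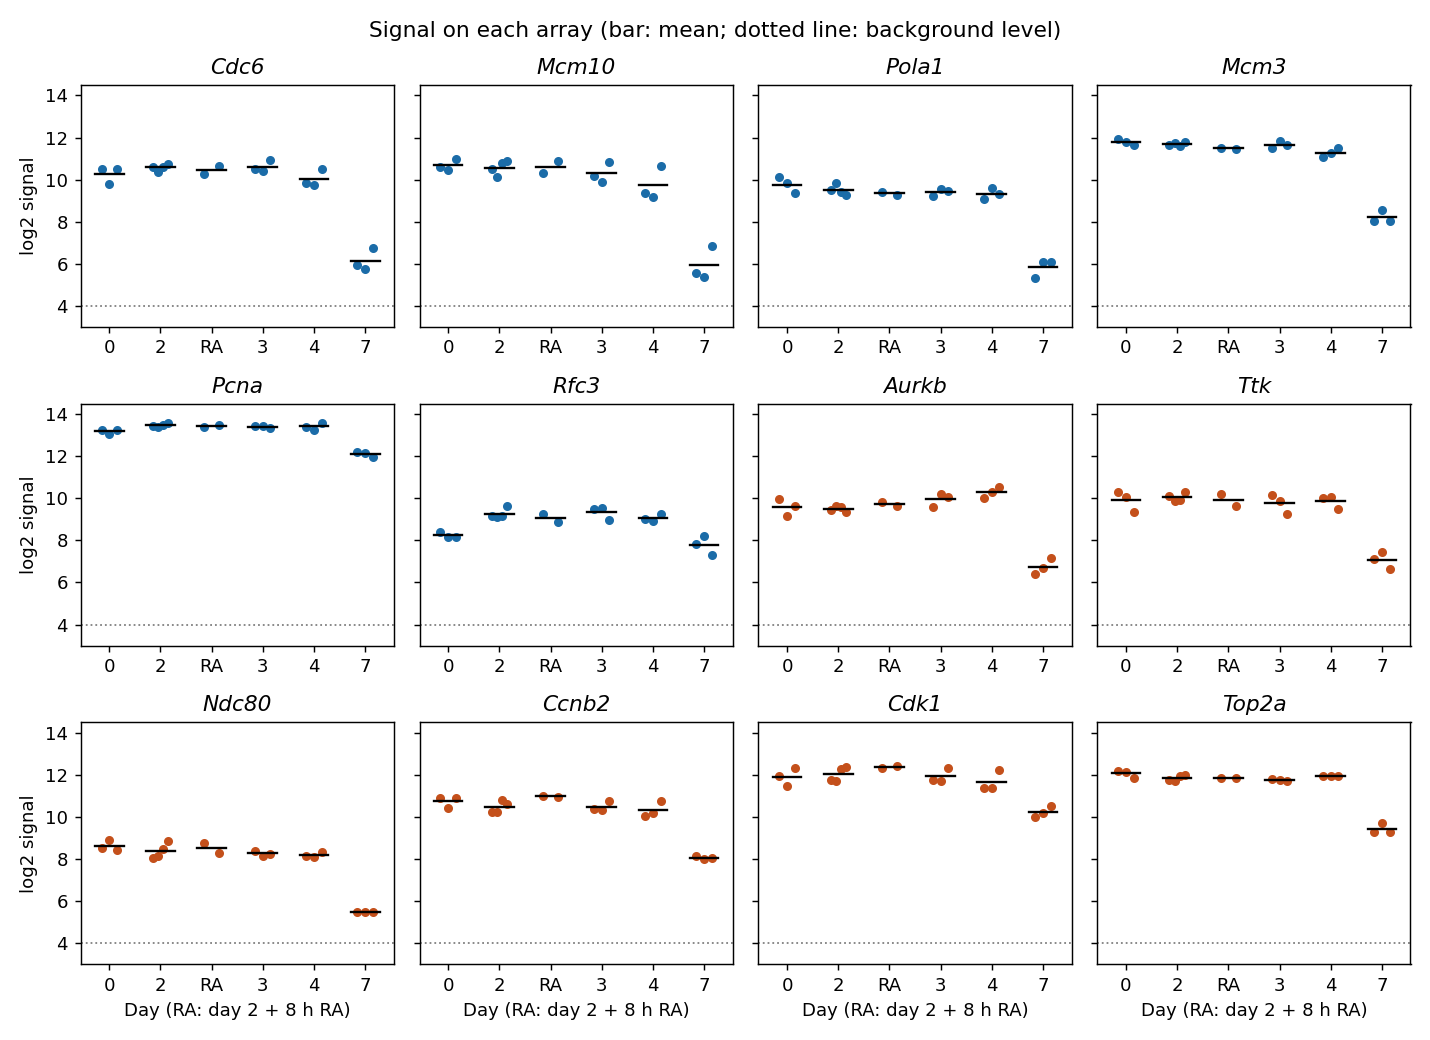
Log2 signal (vertical axis) on every array of 12 of the 39 genes, by stage (horizontal axis, RA marking day 2 with 8 h of RA), with a bar at the stage mean and a dotted line at the background level. In each panel the 3 day 7 points lie below the day 4 points and above the background level.

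The falls are also described in order of size. Of the 38 neighbouring pairs in that order, 37 differed by less than the larger of their standard errors, and the largest gap between neighbours was 0.426 on the log2 scale. With 39 values between -3.89 and -1.26, neighbours lie close largely because the genes are many. The count of 37 therefore says little about the genes. Probe sets of 1 gene gave different sizes too. Of the 73 member probe sets with a mean of 4 or above at day 4 or day 7, 68 were called lower, 0 were called higher and 5 were not called. Those 5 belonged to Mcm10 (-1.39), Gins1 (-1.40), Ttk (-1.81), Cenpa (-1.97) and Top2a (-1.56), each beside a brighter probe set that was called. The 11 probe sets under background on both days were not called either, and they belonged to Mcm6, Cdc45, Cdt1, Pola1, Rrm1, Aurka, Tpx2, Bub1b, Cenpa and Top2a. In the 25 genes with 2 or more probe sets above background the median difference between them was 0.517, and the brightest probe set showed the smallest fall in 14 and the largest in 9. The largest difference, 2.83, was that of Rrm2, whose probe sets changed by -1.31, -2.57 and -4.14.

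The steps before day 7 were compared in turn. From day 0 to day 2, when ES cells form embryoid bodies, 0 of 39 genes were called in either direction with limma (background 2.02% called higher and 2.46% lower), and at an unadjusted p under 0.05 there were 5 higher and 0 lower (9.72% and 11.5% of all genes). These 5 were all replication genes, namely Gins2 (1.11 ± 0.41, adjusted p = 0.18), Rfc3 (1.0 ± 0.21, adjusted p = 0.014), Rrm1 (0.71 ± 0.30, adjusted p = 0.26), Fen1 (0.31 ± 0.10, adjusted p = 0.1) and Pcna (0.28 ± 0.08, adjusted p = 0.076). Rfc3 was at 8.42, 8.18 and 8.18 on day 0 and at 9.17, 9.10, 9.14 and 9.63 on day 2, and its second probe set differed by 0.93 with an adjusted p of 0.038. Rfc3, Fen1 and Pcna were the 3 genes whose day 2 arrays all lay above the day 0 arrays (7.2% of all genes did so), and no gene lay below (8.07%). Rfc3 alone passed the threshold under other settings, given under the processing alternatives. The median over the 39 genes was 0.11.

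After 8 h of RA at day 2 the median over the 39 genes was near that without RA. With limma 0 of 39 were called (background 0.363% higher and 0.0715% lower), with 1 higher and 0 lower at an unadjusted p under 0.05 (background 4.41% and 1.36%), and the median difference was 0.00. That 1 gene was Ccnb2, at 11.02 and 10.96 with RA against 10.24, 10.23, 10.81 and 10.61 without (0.52 ± 0.22, adjusted p = 1). Both RA arrays lay above all day 2 arrays in 4 genes and below them in 1 (7.93% and 3.41% of all genes). The differences of single genes ran from -0.47 for Mcm4 to 0.52 for Ccnb2, with standard errors of up to 0.469 (Mcm10). With so few of all genes called, 0 calls among 39 do not set these genes apart. Changes of single genes within such errors could not be seen with 2 RA arrays. The day 2 arrays were not alike for these genes. Replicates 3 and 4 were above replicates 1 and 2 by a median of 0.25 over the 39 genes (0 over all genes), and in 24 genes (61.5%) both were above both others, as in 33% of all genes. In 4 genes (10.3%, against 17.7% of all genes) both were below, namely Mcm4, Pola1, Rrm2 and Tpx2. Mcm4 was at 12.80 and 12.85 in replicates 1 and 2 and at 11.76 and 11.28 in replicates 3 and 4.

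From day 2 to day 3, after RA and hedgehog agonist had been added, 0 of 39 were called by limma (background 3.91% higher and 3.8% lower) while 2 were higher and 1 lower at an unadjusted p under 0.05 (background 12.5% and 12.7%). Nuf2 differed by 0.41 ± 0.12 (adjusted p = 0.056), Tpx2 by 0.35 ± 0.13 and Aurka by -0.69 ± 0.25 (adjusted p = 0.14 for both). Nuf2 was at 9.51, 9.64, 9.61 and 9.49 on day 2 and at 9.91, 9.99 and 10.01 on day 3, and Aurka at 10.33, 9.87, 10.45 and 10.87 and then at 9.72, 9.72 and 9.63. The arrays of the days did not overlap for either gene, and over the 39 genes 3 lay wholly above and 2 wholly below (12.1% and 12.2% of all genes). Within the 3 replicate numbers that the days share, 9 of 39 genes (23.1%) were higher on day 3 in every pair and 6 (15.4%) lower, against 22% and 21.6% of all genes. Mki67 was at 0.69, 0.94 and 0.31 in the pairs and Plk1 at -0.69, -0.24 and -0.75. The median was -0.03.

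From day 3 to day 4, the step in which 5 of 7 neuron markers were called higher, 0 of 39 were called by limma (background 0.627% higher and 0.792% lower), with 0 higher and 1 lower at an unadjusted p under 0.05 (background 4.28% and 5.83%). That gene was Mcm3 (-0.38 ± 0.15, adjusted p = 0.47). All day 4 arrays lay above the day 3 arrays for 1 gene, Top2a, and below them for 1, Gins2 (5.72% and 7.91% of all genes). The median was -0.13 over the 39 genes, -0.21 for replication and -0.02 for mitosis. Arrays of days 3 and 4 with the same replicate number deviated together, so the differences were also taken within the 3 numbers. In 17 of 39 genes (43.6%) day 4 was below day 3 in all 3 pairs, which held for 20.4% of all genes. These were 13 of 22 replication genes (59.1%) and 4 of 17 mitosis genes (23.5%), and 3 of 39 genes (7.69%) were above in all 3 pairs against 15.2% of all genes. Of all 18193 genes, 8413 had a mean change below 0 and 7522 above it. The rest had none and could not count in either share, which lowers both shares of all genes. Gins2 was at -0.96, -0.81 and -0.16 in the 3 pairs, Mcm10 at -0.80, -0.72 and -0.20 and Cdc6 at -0.66, -0.65 and -0.44, while Aurkb was at 0.42, 0.13 and 0.46 and Top2a at 0.19, 0.18 and 0.28. The median of the replication genes was -0.27, -0.29 and -0.10 in the 3 pairs and that of the mitosis genes -0.15, -0.13 and 0.13. The difference between the branches was not tested, and none of these single-gene differences passed the threshold.

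**Figure D5:**
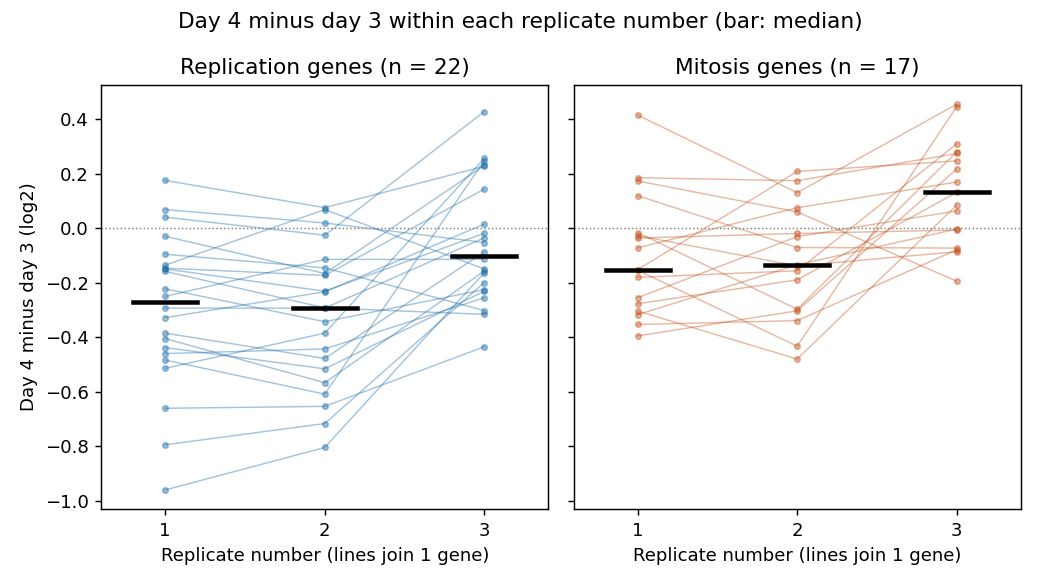
Day 4 minus day 3 within each replicate number (vertical axis, log2; horizontal axis, replicate numbers 1 to 3), with 1 line per gene and the median as a bar, for 22 replication and 17 mitosis genes. The replication medians are below 0 in all 3 pairs and the mitosis median is above 0 in the pair of replicate 3.

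Against ES cells, day 7 was lower in 38 of 39 genes (background 16.4% called lower), with a median change of -2.40, and in 38 genes all day 7 arrays lay below all day 0 arrays (24.3% of all genes). This comparison shares the day 7 arrays with the one above, so its values are given side by side only. Mcm10 had the largest change against day 0 (-4.75 ± 0.44) and Cdc6 the next (-4.12 ± 0.29). Rfc3 was the gene not called. It was at 8.42, 8.18 and 8.18 on day 0 and at 7.85, 8.22 and 7.31 on day 7, so the days overlapped (-0.47 ± 0.23, adjusted p = 0.16). Fen1 (-0.98 ± 0.10) and Rrm1 (-1.05 ± 0.32, adjusted p = 0.024) did not pass on their brightest probe set and were called on another. Before day 7 the 39 genes had no common stage of highest mean, which was day 0 in 6, day 2 in 8, day 2 with RA in 12, day 3 in 8 and day 4 in 5.

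Other genes of the same machinery were counted for comparison. Of 32 further replication genes 30 were measured, and 27 were called lower from day 4 to day 7 with a median of -2.02. Pole2, a subunit of DNA polymerase epsilon, changed by -3.88 and the thymidine kinase gene Tk1 by -2.91. The 3 that were not called were the origin recognition genes Orc3 (-0.40, adjusted p = 0.38) and Orc5 (-0.64, adjusted p = 0.29) and the clamp loader gene Rfc2 (-0.55, adjusted p = 0.18). Of 32 further mitosis genes 30 were measured and 29 were called lower, with a median of -2.17, among them the kinetochore gene Cenph (-3.21) and the cleavage furrow gene Anln (-3.76). Bub3, a spindle checkpoint gene, was the 1 not called (-0.36, adjusted p = 0.58). None of these further genes was called higher.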

How the data were processed

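RNA was amplified with the NuGEN Ovation kit and read on Affymetrix mouse arrays. The authors normalized the 18 arrays together with GCRMA and deposited log2 signals (tool versions not given in the sources used here). They were used as deposited, without 64 control probe sets. Replicates are biological per the study's methods, and each group's number of arrays limits the precision.

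Comparisons were fitted with limma 3.58.1 under R 4.3.3, using 6 group means on all 18 arrays (12 residual and 0.515 prior degrees of freedom) and Benjamini-Hochberg adjustment over 45037 probe sets. Gene names came from the platform annotation, where 34945 probe sets had 1 symbol, 932 several and 9160 none. Python 3.11.15 with pandas 2.3.3 and matplotlib 3.10.9 counted motifs and drew figures. Errors are standard errors of log2 fold changes unless given as SD. The fit was tested on simulated data.

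The genes and lists were chosen with earlier results of these data known. Values on single arrays are given for the genes with the largest and smallest change in each role (1 gene in roles of 2) and for genes called, or singled out after their values were seen, at an earlier step. Correlations of same-numbered arrays' deviations were 0.48, 0.35 and 0.48 from day 2 to 3 and 0.64, 0.42 and 0.75 from day 3 to 4, which was taken as pairing. Alternatives were other fits, scalings, probe set choices and thresholds, and each array left out.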

Additional observations from a re-analysis of the deposited data

Results flagged for a closer look

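Among the 39 genes, checked in the group of 4 day 2 arrays, 1 had an array far from the others. Rfc3 was at 9.633 on day 2 replicate 4, while the other day 2 arrays lay between 9.104 and 9.172. Its gap to the nearest array was 0.871 of the group's range. Chance alone gives about 1 such array in 20 groups, so 1 flag among 39 genes is no more than that rate gives.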

How the results depend on the processing

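The count of 39 genes lower at day 7 than at day 4 was 22 with the arrays of the 2 compared groups only, where fewer arrays estimate the spread, and 38 to 39 with each day 4 or day 7 array left out. It was 39 with a replicate block over all arrays, with other scalings, with array weights and with the brightest or averaged probe sets, and 31 of 33 measured genes with probe sets of s, x or a suffixes left out. From day 0 to day 2 the count of genes called higher was 1, Rfc3, with dim probe sets left out (adjusted p = 0.0098), with each array centred on its median (adjusted p = 0.0083) and at an adjusted p under 0.05. The other early counts stayed at 0 in every setting run, the replicate block for the paired arrays included. For day 7 against day 4 only replicate 3 is shared, so no paired analysis of those groups alone was possible. The count against day 0 was 30 to 38. Of 696 single-gene values of day 7 against day 4, 663 kept their side of the threshold, 33 missed it and 0 changed direction. The 39 values with the brightest probe set only repeat the main ones. The 39 values at an adjusted p under 0.05 meet a looser threshold, so neither set could miss it. No value of the 39 genes on the brightest probe sets was under background, so raising values to that level could not alter their fold changes. With 1 array left out, Cdk1 missed the threshold without day 4 replicate 3 or day 7 replicate 3 or 4. The brightest probe set of Rrm1 missed it without day 4 replicate 1 or 3 or day 7 replicate 5 (adjusted p = 0.011 to 0.012), and that of Gins2 without day 4 replicate 3 or day 7 replicate 5 (adjusted p = 0.013 to 0.014), while another probe set of each was still called. Signal over background limited 11 of the 84 probe sets.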

Other observations

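Some genes on the wider replication and mitosis lists fell further from day 0 to day 4 than any of the 39. Among the 39 the largest such fall was that of Mcm10 (-0.94). Mybl2, a transcription factor of the cell cycle, was at 11.96 ± 0.17 (SD, n = 3) in ES cells and at 9.43 ± 0.16 (n = 4) on day 2, a fall of 5.77-fold (limma, -2.53, adjusted p = 0.0019). Its mean was 8.26 on day 3 and 7.69 on day 4, and all 3 day 7 arrays lay under the background level of 4. On its brightest probe set the step from day 2 to day 3 was -1.17 with an adjusted p of 0.1, and it was called on another probe set. Orc1, the largest subunit of the origin recognition complex, had means of 8.94, 8.46, 7.52 and 6.19 on days 0, 2, 3 and 4. Its steps up to day 4 did not pass the threshold, and at day 7 it too was under background on all 3 arrays. Rfc5, Orc5, Espl1 and Dbf4 had lower means on day 4 (9.21, 7.97, 7.86 and 11.08) than on day 0 (10.58, 9.31, 9.09 and 12.14). Others went the other way, among them Gins3 and Tyms, with means of 8.70 and 6.80 on day 4 and of 7.93 and 5.87 on day 0. Anln was called lower from day 0 to day 2 on 1 of its probe sets and changed by -0.81 on its brightest (adjusted p = 0.04). These genes were singled out after their values were seen.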
